A study of Mus musculus with 6 samples.

Results

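The 50 genes described here act in the second gap phase of the cell cycle (G2) and in mitosis (M). They were taken from the deposited table by gene symbol, from transcription factors of the program to the enzymes that separate the chromosomes, and 50 of 50 were found among 49315 genes. The series compared mouse embryonic fibroblasts, mesenchymal cells grown out of E13.5 (mid-gestation) embryos, of 2 genotypes: Acvr1+/+ (wild type) and Acvr1R206H/+, which carries 1 copy of the R206H allele of the bone morphogenetic protein (BMP) receptor gene Acvr1 and models fibrodysplasia ossificans progressiva (FOP). Cells at passage 0 gave total RNA after 2 days of culture in serum, and 3 libraries per genotype are called biological replicates in the design text. The labels do not say how many embryos or litters gave rise to a library, so p-values measure the spread between these libraries. No group received a further treatment.

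In a dividing cell, cyclin A and cyclin B bind the kinase Cdk1, which drives entry into mitosis once Cdc25 phosphatases have removed its inhibitory phosphates. Most genes of the program are transcribed late in the cycle by B-Myb (Mybl2) and Foxm1 together with the MuvB complex, while the DREAM complex, which also contains MuvB, represses them in resting cells. Fibroblasts newly taken from an embryo divide rapidly in serum, and levels of these RNAs in a bulk culture are widely read as a mark of its dividing cells. In bulk RNA, fewer cells in G2 or mitosis and less RNA per such cell cannot be told apart.

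Levels are in TPM, a transcript abundance scaled for gene length and for the total of the library. Differences are in log2(TPM + 1), R206H minus wild type, from limma fitted over the 14818 genes that reached 1 TPM in 3 or more libraries, with Benjamini-Hochberg adjusted p-values and a threshold of 0.05. The estimated depth was 17483974 to 24553059 reads per library, and each member had between 191 and 8040 reads in each library. All 50 members passed the filter on low values. On the first 2 principal components of all genes tested, wild-type library 1 lay away from the rest along the second (34.1 against -16.3 to 4.8). Along the first, R206H library 3 was the most extreme, at 39.5. R206H libraries 1 and 2 were at 7.2 and 20.7 there, and the wild-type libraries at -29.1 to -18. The TPM values do not show which Acvr1 allele was transcribed, so they do not check the genotype labels.

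Most mitosis and G2/M genes had slightly lower values in R206H fibroblasts, and 1 of the 50 passed the test: Foxm1, a forkhead transcription factor of the program, fell. No member passed upward, and 2 had a higher value with an unadjusted p under 0.05. Over all genes tested, 0.790% were called lower and 1.26% higher at the adjusted threshold. The median difference over the 50 members was -0.14, beside 0.02 over all genes tested, and 44 of 50 had a negative difference, beside 46.4% of all genes. At an unadjusted p under 0.05, 23 of 50 were lower, beside 11.7% of all genes, and 2 were higher, beside 14.4%. Every R206H library was below every wild-type library for 31 members and above for 2, beside 15.0% and 17.9% of all genes. At an adjusted p under 0.10 limma called 4 members lower (Foxm1, Birc5, Aurka and Anln), beside 5.16% of all genes, and 1 higher (Pttg1), beside 6.90%. Limma with library weights, which counts less variable libraries more, called 6 lower at 0.05 (these 4 with Nek2 and Hmmr), beside 5.29%, and 1 higher (Pttg1), beside 7.57%. Foxm1 and Birc5 were called lower among genes at TPM 5 or more, beside 2.07% of those genes, and without R206H library 1, beside 2.22%. No member was called lower with a pseudocount of 0.1 or 5, no filter on low values, median-of-ratios scaling or quantile normalization. The same held without the variance trend, with a replicate block, and without any single library other than R206H library 1.

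The sizes were small. Ratios of mean TPM, R206H over wild type, ran from 0.791 for Nek2 to 1.25 for Pttg1, and 49 of the 50 lay between 0.8 and 1.25. The 95% interval of the difference lay within 0.5 on the log2 scale in either direction for 49 members, so larger changes lay outside the intervals of these 49. Together the 50 genes had 3343, 3612 and 3481 TPM (wild-type libraries 1 to 3) against 3245, 3216 and 3126 TPM (R206H libraries 1 to 3), the order of libraries used throughout. The highest R206H sum was below the lowest wild-type sum, and the mean sum was 8.13% lower in R206H. The 50 genes were measured in the same 6 libraries, so they are not replicates of the comparison.

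**Figure D1:**
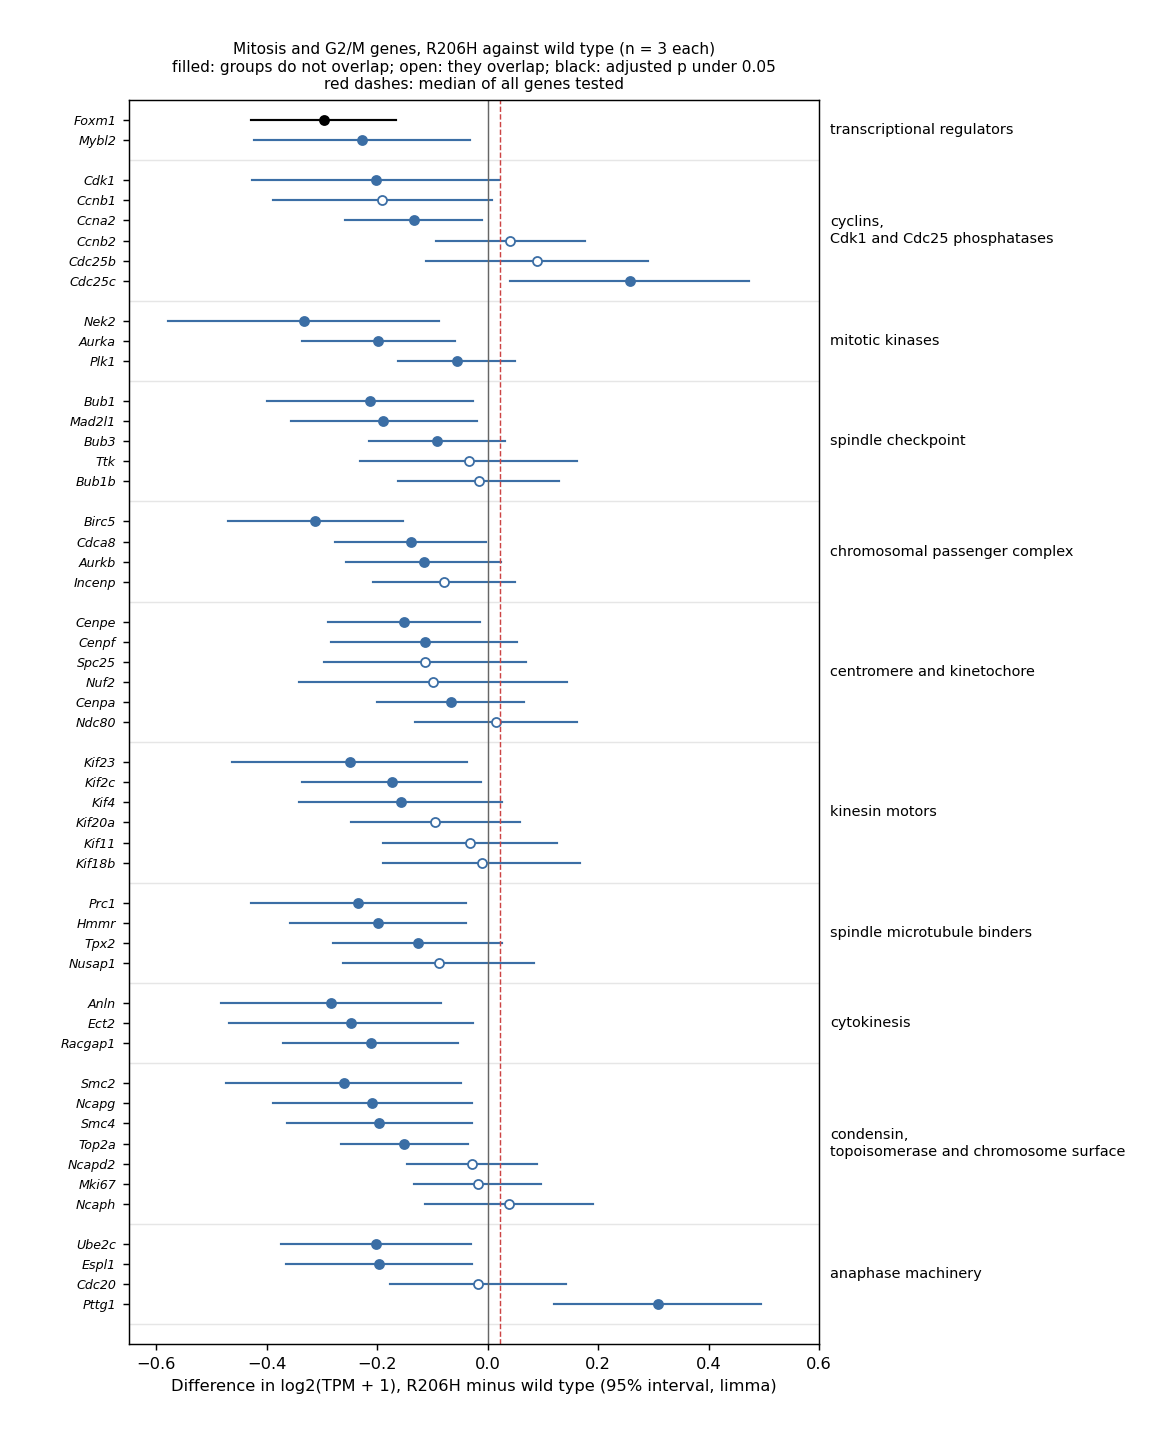
Difference in log2(TPM + 1), R206H minus wild type, for the 50 genes grouped by role (points) with 95% limma intervals (lines), n = 3 libraries per genotype. Filled points mark the 33 genes whose groups do not overlap, the black point is Foxm1, and 44 points lie left of 0.

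The 2 transcriptional regulators were both lower in every R206H library. Foxm1 (ENSMUSG00000001517, chromosome 6, 128362967 to 128376146, GRCm38) was measured at 63.6, 63.6 and 62.0 TPM in wild type and at 53.3, 50.6 and 49.5 TPM in R206H. The wild-type libraries lay close together, and the gap between the groups was larger than the spread within either. The mean was 63.1 ± 0.899 against 51.2 ± 1.95 TPM (SD, n = 3), 18.9% lower, with a difference of -0.30 (SE 0.055, limma adjusted p = 0.0498). This call was at the edge of the threshold, with adjusted p-values from 0.0183 to 0.167 over the alternatives tried, and it was lost without any 1 of wild-type libraries 1, 2 and 3 (adjusted p = 0.0681, 0.153 and 0.167) or R206H libraries 2 and 3 (0.156 and 0.102). Mybl2, which encodes the MuvB partner B-Myb, had 30.7, 32.4 and 29.4 TPM in wild type and 28.8, 24.6 and 25.3 TPM in R206H. Its groups did not overlap either, although R206H library 1 was close to wild-type library 3, and its difference of -0.23 (SE 0.083) did not pass (limma adjusted p = 0.146).

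**Figure D2:**
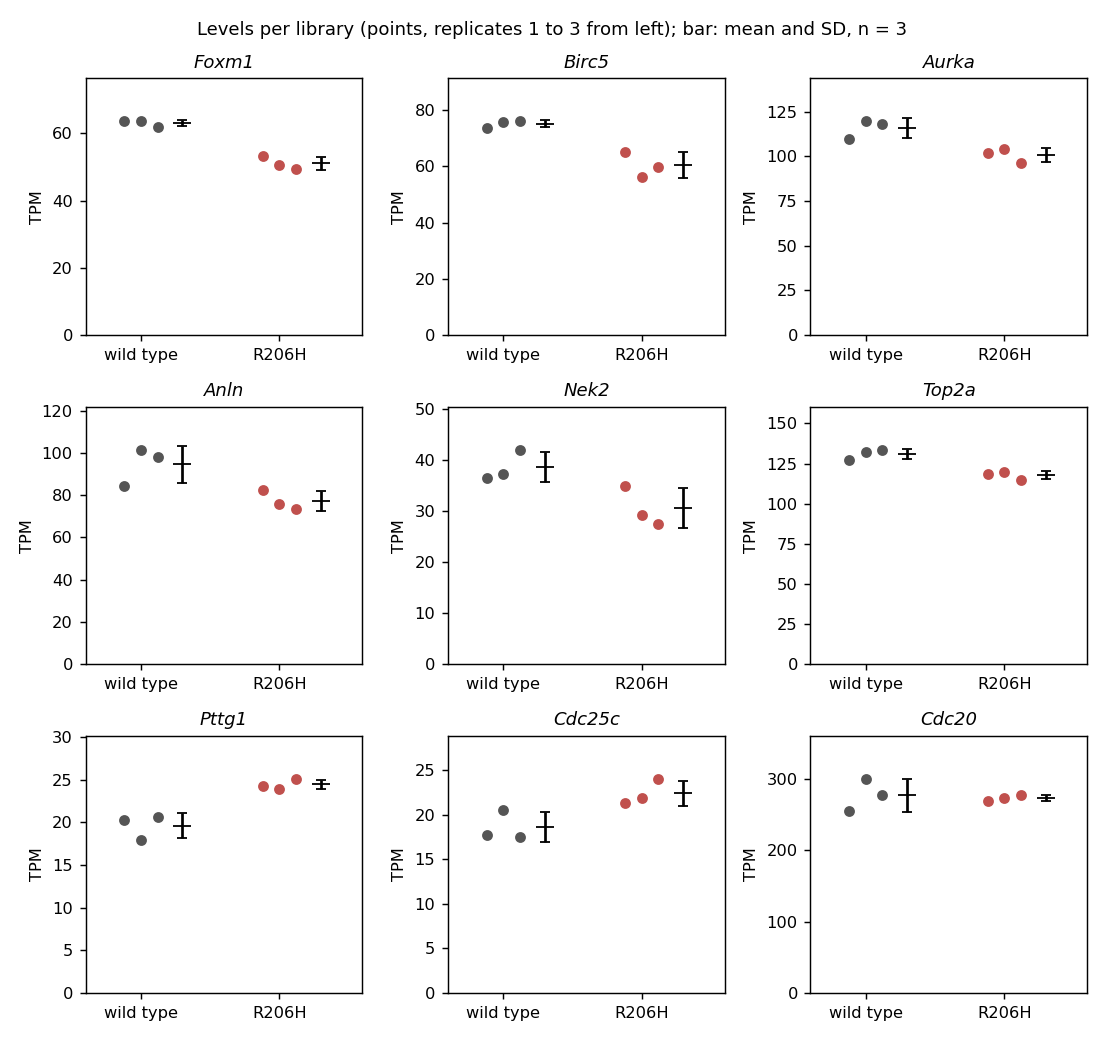
TPM per library (points) with mean and SD (bars, n = 3) for 9 of the 50 genes, in wild-type (grey) and R206H (red) fibroblasts, on axes that start at 0. The R206H points lie below the wild-type points for Foxm1, Birc5, Aurka, Anln, Nek2 and Top2a, above them for Pttg1 and Cdc25c, and between them for Cdc20.

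Cyclins, Cdk1 and the Cdc25 phosphatases were divided, with 3 negative and 3 positive differences and none past the threshold. Ccna2, the cyclin of S phase and G2, and Cdk1, the mitotic kinase, had differences of -0.13 and -0.20 with groups that did not overlap. For Cdk1 the groups nearly touched, at 101.095 TPM in wild-type library 1 and 101.067 TPM in R206H library 2. Its 95% interval was -0.43 to 0.02. The 2 B-type cyclins had unlike values. Ccnb1 had 98.3, 118.9 and 112 TPM in wild type and 100.9, 96.7 and 89.7 TPM in R206H, a difference of -0.19 (adjusted p = 0.204). Ccnb2, the highest of the role, had 117.3, 129.9 and 118 TPM in wild type and 124.4, 125.7 and 125.3 TPM in R206H, a difference of 0.04 with a 95% interval of -0.09 to 0.18. For both cyclins the groups overlapped.

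The Cdc25 genes were among the few with positive values. Cdc25c, a phosphatase that activates Cdk1 at the entry to mitosis, had 17.7, 20.6 and 17.6 TPM in wild type and 21.3, 21.8 and 24.0 TPM in R206H. All R206H libraries were above all wild-type libraries, with means of 22.4 ± 1.43 and 18.6 ± 1.70 TPM (SD, n = 3) and a difference of 0.26 (SE 0.092, adjusted p = 0.142) that did not pass. Cdc25b, which acts on Cdk1 earlier at the centrosome, had a difference of 0.09 and groups that overlapped.

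Of the mitotic kinases, all 3 were lower in every R206H library and none passed. Aurka, which encodes the centrosome and spindle kinase Aurora A, had 109.8, 119.7 and 118.3 TPM in wild type and 102.1, 104.1 and 96.6 TPM in R206H, a difference of -0.20 (SE 0.059, adjusted p = 0.0981). Nek2, a kinase that releases the link between centrosomes, had the lowest ratio of the 50 genes, at 38.5 ± 2.92 against 30.5 ± 3.89 TPM (SD, n = 3), with a difference of -0.33 and an adjusted p of 0.109. R206H library 1 was the nearest to wild type for Nek2, at 34.9 TPM against 36.5 TPM in wild-type library 1. Plk1, the polo-like kinase of mitotic entry and spindle assembly and the highest of the role, differed least, at 162.8 ± 1.84 against 156.6 ± 2.62 TPM (SD, n = 3), a difference of -0.06 with a 95% interval of -0.16 to 0.05.

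The spindle checkpoint delays anaphase until every chromosome is attached, and all 5 of its genes had negative differences, of which none passed. Bub1, a kinetochore kinase, had 40.9, 42.6 and 40.0 TPM in wild type and 38.2, 36.1 and 32.1 TPM in R206H, a difference of -0.21 (adjusted p = 0.152). The groups did not overlap for Bub1, for Mad2l1, the inhibitor that binds Cdc20 (-0.19), or for Bub3 (-0.09). They overlapped for the kinase gene Ttk (-0.03) and for Bub1b, which encodes BubR1 and was the highest of the role at 74.2 ± 3.56 and 73.3 ± 3.28 TPM in wild type and R206H (SD, n = 3). The interval for Bub1b was -0.16 to 0.13.

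The chromosomal passenger complex joins the kinase Aurora B to survivin, borealin and its scaffold, and corrects faulty attachments. Birc5 (survivin, chromosome 11, 117849251 to 117855743) had the smallest p of the members after Foxm1. It had 73.6, 75.8 and 76.1 TPM in wild type and 65.3, 56.3 and 59.8 TPM in R206H, so that the highest R206H value was well below the lowest wild-type value. The difference of -0.31 (SE 0.067, 19.5% lower) did not pass with limma (adjusted p = 0.0609), but did with voom, the limma method for counts run on reads rebuilt from TPM (adjusted p = 0.032). By that method Foxm1 and Birc5 were the 2 of 50 members called lower and none was called higher, beside 4.08% and 4.61% of all genes. The other subunits had smaller values, -0.14 for Cdca8 (borealin), -0.12 for Aurkb and -0.08 for the scaffold gene Incenp, and Incenp was the one whose groups overlapped.

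At the centromere and kinetochore, 5 of 6 differences were negative, none passed, and 3 genes had groups that did not overlap. Cenpe, a kinesin that moves chromosomes to the spindle equator, had 43.4, 42.0 and 42.5 TPM in wild type and 38.8, 39.3 and 36.7 TPM in R206H, a difference of -0.15 (adjusted p = 0.161). The histone variant gene Cenpa and the kinetochore gene Cenpf had -0.07 and -0.11, also with every R206H library lower. Within the complex that grips microtubules, Ndc80, the highest of the role, had 0.01 with a 95% interval of -0.13 to 0.16, and its partners Nuf2 and Spc25 had -0.10 and -0.11, with overlapping groups for all 3. The sign for Ndc80 changed with the scaling, to -0.01 with median-of-ratios scaling and with voom and -0.02 with quantile normalization.

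Among the 6 kinesin motors all differences were negative and none passed. Kif23, the motor subunit of centralspindlin at the cell midzone, had 32.9, 36.2 and 35.3 TPM in wild type and 32.7, 28.0 and 26.8 TPM in R206H, a difference of -0.25 (adjusted p = 0.145). Its highest R206H value was just below its lowest wild-type value. Kif2c, a microtubule depolymerase, and the chromokinesin gene Kif4 had -0.17 and -0.16 with groups that did not overlap. The groups overlapped for Kif20a, the highest of the role at 127.5 ± 7.50 and 119.3 ± 5.90 TPM in wild type and R206H (SD, n = 3, difference -0.09), for Kif11, which pushes spindle poles apart (-0.03), and for Kif18b (-0.01).

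The 4 genes of spindle microtubule binders and the 3 of cytokinesis all had negative differences, and none passed. Hmmr had 39.7, 44.9 and 43.6 TPM in wild type and 37.8, 37.1 and 36.3 TPM in R206H, a difference of -0.20 (adjusted p = 0.127). Prc1, which bundles the microtubules of the midzone, had -0.23, Tpx2, the activator of Aurora A and the highest of the role, had -0.13, and Nusap1 had -0.09, with groups that overlapped only for Nusap1. Anln, which encodes the contractile ring scaffold anillin, had 84.4, 101.3 and 97.8 TPM in wild type and 82.5, 76.0 and 73.4 TPM in R206H. Its groups did not overlap, but wild-type library 1 was close to R206H library 1, and the difference of -0.28 did not pass (SE 0.084, adjusted p = 0.0994). Ect2, the exchange factor that activates RhoA for the furrow, and Racgap1, its centralspindlin partner, had -0.25 and -0.21, also with every R206H library lower. The median of the 3 cytokinesis genes was -0.25, the second lowest among the 11 roles after that of the transcriptional regulators (-0.26), and neither is tested against the others.

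Genes of chromosome structure gave unlike values within one complex, and none passed. Top2a, the topoisomerase that untangles sister chromatids and the highest of the role, had 127.3, 131.9 and 133.4 TPM in wild type and 118.7, 119.6 and 115 TPM in R206H, a difference of -0.15 (SE 0.049, adjusted p = 0.117). The condensin genes Smc2, Smc4 and Ncapg had -0.26, -0.20 and -0.21 with groups that did not overlap. For Smc2 the groups nearly touched, at 78.126 TPM in wild-type library 1 and 78.117 TPM in R206H library 2. The other condensin I subunit genes, Ncapd2 and Ncaph, had -0.03 and 0.04 with groups that overlapped. Mki67, whose protein coats mitotic chromosomes and serves as a common marker of dividing cells, had 108.1, 111.6 and 112.5 TPM in wild type and 106.6, 110.5 and 111.1 TPM in R206H. Its groups overlapped, and its difference of -0.02 had a 95% interval of -0.13 to 0.10.

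The 4 anaphase genes held the most positive value of all 50, and none passed with limma. Pttg1 encodes securin, which holds the protease separase inactive until anaphase (chromosome 11, 43420250 to 43426251). It had 20.2, 17.9 and 20.6 TPM in wild type and 24.3, 23.9 and 25.1 TPM in R206H. All R206H libraries were higher, with a difference of 0.31 (SE 0.079) that did not pass with limma (adjusted p = 0.0776) or with voom (0.127), but did with limma with library weights (0.0434). Espl1, the separase gene, went the other way, with 29.9, 29.1 and 29.8 TPM in wild type and 26.5, 23.8 and 26.8 TPM in R206H, a difference of -0.20 (adjusted p = 0.145). Ube2c, the ubiquitin-conjugating enzyme of the anaphase-promoting complex (APC/C), had -0.20 with groups that did not overlap. Cdc20, the activator of that complex and the highest of all 50 genes, had 254.2, 299.6 and 276.5 TPM in wild type and 269.5, 272.4 and 276.7 TPM in R206H. Its R206H values lay inside the wild-type range, with a difference of -0.02 and a 95% interval of -0.18 to 0.14.

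Some members share exon sequence with a neighbouring gene on the other strand, and the strand setting of the counting is not given in the sources used here. The largest share was in Kif20a, where 29.3% of exon bases lie in exons of Cdc23, at 26.9 to 34.0 TPM, and the next was in Ube2c, where 22.8% lie in exons of Tnnc2, at 8.35 to 11.8 TPM. Kif4 shared 15.1% with Pdzd11, which at 45.5 to 54.8 TPM was above Kif4 itself (29.5 to 38.1 TPM). Ccna2 shared 12.5% with Exosc9, at 26.1 to 30.1 TPM. The part of these neighbours in the members' values was not tested. For Foxm1 the shared bases were 2.50% with Tex52 and 1.69% with an unnamed gene model, both on the same strand and at no more than 1.36 TPM. Birc5 and Pttg1 shared none.

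Promoters of the members often held the letters that mark this program. CCAAT is the site of the factor NF-Y, and the letters TTTGAA or TTCGAA are forms of the cell cycle homology region, at which MuvB complexes bind. RefSeq promoters (GRCm38.p6) were matched by symbol for 42 of 50 members, and not for Foxm1, Tpx2, Incenp, Kif20a, Smc4, Aurkb, Ccna2 and Cdc25c. In the 250 bases before the start, on either strand, CCAAT was found in 32 of 42 members (76.2%), beside 34.5% of 27025 promoters in the table. TTTGAA or TTCGAA was found in 16 of 42 (38.1%), beside 17.4%, and both kinds in 15 of 42 (35.7%), beside 6.21%. The median difference between genotypes was -0.15 over the 15 members with both kinds and -0.15 over the other 27. A match is a run of letters and was not tested as a binding site.

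The 150 bases before the start are shown, 5′ to 3′, for the 4 members with the smallest p that have a promoter in the table and at most 30 of these bases in annotated exons, among the chromosomes used here. Capitals mark CCAAT and the forms TTTGAA or TTCGAA on either strand, so that ATTGG or TTCAAA are the reverse forms.
Birc5, chr11:117849087-117849236, plus strand: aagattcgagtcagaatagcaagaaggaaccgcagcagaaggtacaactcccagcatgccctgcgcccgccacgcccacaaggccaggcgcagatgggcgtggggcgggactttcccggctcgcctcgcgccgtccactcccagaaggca
Anln, chr9:22389207-22389356, minus strand: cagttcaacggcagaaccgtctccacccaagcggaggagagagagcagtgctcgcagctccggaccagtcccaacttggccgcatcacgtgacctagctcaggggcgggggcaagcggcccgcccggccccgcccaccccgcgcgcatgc
Racgap1, chr15:99651657-99651806, minus strand: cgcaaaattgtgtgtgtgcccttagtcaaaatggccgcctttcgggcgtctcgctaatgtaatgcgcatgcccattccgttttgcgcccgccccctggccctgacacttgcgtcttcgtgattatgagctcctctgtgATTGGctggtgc
Top2a, chr11:99024190-99024339, minus strand: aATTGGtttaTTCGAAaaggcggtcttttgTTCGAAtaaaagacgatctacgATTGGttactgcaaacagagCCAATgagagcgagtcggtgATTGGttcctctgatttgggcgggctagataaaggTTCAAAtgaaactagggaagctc
Within this window Birc5 and Anln held none of the letters, Racgap1 held 1 CCAAT and Top2a held both kinds. To show the arrangement in full, 3 more promoters follow, the members with at least 2 CCAAT and 1 of the other forms in these bases under the same limits.
Ect2, chr3:27153855-27154004, minus strand: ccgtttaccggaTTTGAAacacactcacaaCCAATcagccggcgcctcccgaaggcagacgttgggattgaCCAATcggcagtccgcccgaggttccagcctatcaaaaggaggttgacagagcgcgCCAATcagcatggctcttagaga
Cdk1, chr10:69352913-69353062, minus strand: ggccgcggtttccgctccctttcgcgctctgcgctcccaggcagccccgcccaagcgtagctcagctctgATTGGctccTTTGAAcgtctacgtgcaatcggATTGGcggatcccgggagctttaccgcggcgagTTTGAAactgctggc
Cdc20, chr4:118437344-118437493, minus strand: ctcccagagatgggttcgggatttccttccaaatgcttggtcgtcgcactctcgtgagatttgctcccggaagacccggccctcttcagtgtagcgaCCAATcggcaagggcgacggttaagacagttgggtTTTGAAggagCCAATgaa
These 3 genes had differences of -0.25, -0.20 and -0.02, which were not tested against each other.

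The members were also compared library by library. The median over the 50 members of each gene's deviation from its own mean was 0.02, 0.12 and 0.07 in wild type against -0.04, -0.05 and -0.11 in R206H. Wild-type library 2 was the highest of the 6 for 27 members, and R206H library 3 was the lowest for 25. Of the 50 genes, 42 had their highest value in a wild-type library and 43 their lowest in an R206H library. Leaving out single libraries changed the number of members lower at an unadjusted p under 0.05 from 23 to 5 without wild-type library 2, 7 without wild-type library 3, 13 without R206H library 2 and 9 without R206H library 3, in fits with fewer libraries. The number with a negative difference was 41 to 45 of 50 in these fits, and the median stayed between -0.15 and -0.12.

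**Figure D3:**
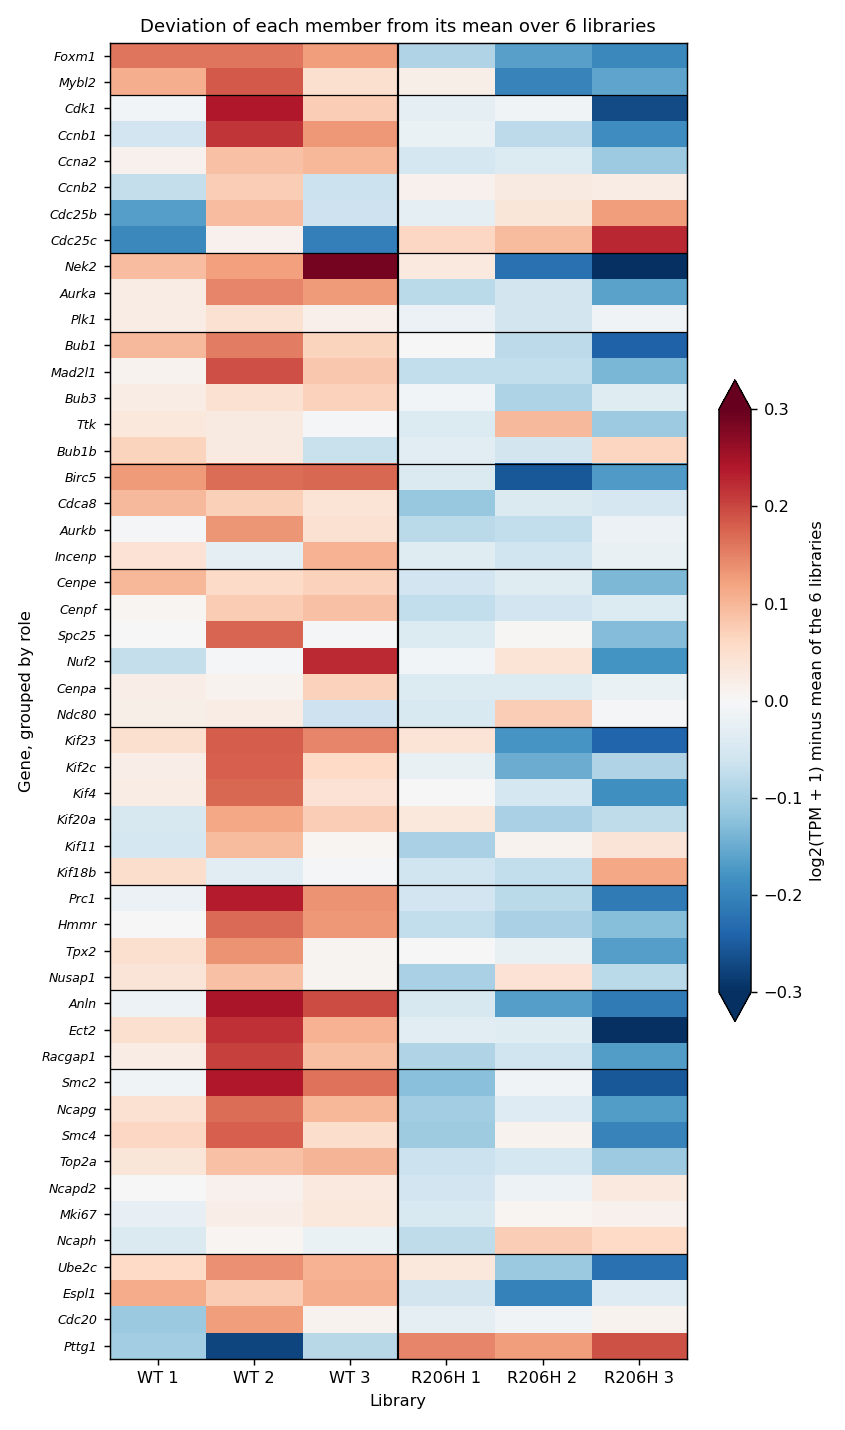
Heat map of the 50 genes (rows, grouped by role) in the 6 libraries (columns), coloured by log2(TPM + 1) minus the gene's mean over the libraries. Wild-type columns are mostly red and R206H columns mostly blue, wild-type library 2 is the highest for 27 genes and R206H library 3 the lowest for 25, and Pttg1 and Cdc25c run the other way.

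Markers of the labelled cells and of other cell types were measured in the same libraries. The mesenchymal markers that the label calls for were present, with 12 of 12 tested and 1, Col6a1, called higher, beside 1.26% of all genes. Their summed level was 8309 to 10176 TPM in wild type and 12320 to 15622 in R206H. Of 18 epithelial markers 14 were tested, and 2 were called lower, Epcam and Cldn3, beside 0.790% of all genes. The summed level of the 18 was 571 to 678 TPM in wild type and 203.6 to 416.7 in R206H. All 14 tested had a negative difference, beside 46.4% of all genes. Grhl2, Esrp1, Ovol1 and Rab25 did not pass the filter. Grhl2 had means of 0.187 and 0.0104 TPM in wild type and R206H, Esrp1 0.4644 and 0.1265, and Rab25 1.334 and 0.4592. Ovol1 went the other way, at 0.1433 and 0.193 TPM, with 0 in R206H libraries 1 and 3. Other markers of the list were present, such as Krt14 (means of 59.1 and 15.6 TPM), Cldn4 (43.95 and 13.01) and Cdh1 (5.87 and 2.07). Skeletal muscle markers summed to 582.7 to 793 and 473.1 to 894.6 TPM, and neural markers to 416.2 to 490.8 and 276.6 to 415.8. Of the 8 neural markers tested, Sox10 was called lower and Tubb3 higher, beside 0.790% and 1.26% of all genes. Endothelial markers summed to 20.5 to 45.8 and 16.4 to 21.4 TPM, and macrophage markers to 44.5 to 49.2 and 41.0 to 74.7. Erythroid markers summed to at most 0.468 TPM, and their globin genes were listed at 0. The part of these cells in the lower values of mitosis and G2/M genes was not tested.

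Further genes of the pathway were taken from lists made by function. Of 73 other G2/M and mitosis genes, none passed with limma in either direction. With an unadjusted p under 0.05, 14 were lower and 2 higher, beside 11.7% and 14.4% of all genes. A negative difference was found for 63, beside 46.4% of all genes, and the median was -0.12. Psrc1, a spindle protein gene, had the most positive value, at 61.2, 61.9 and 60.1 TPM in wild type and 76.3, 82.7 and 97.9 TPM in R206H, a difference of 0.47 (SE 0.092, limma adjusted p = 0.0511). It was called higher with voom (adjusted p = 0.0278), which also called 2 lower, Troap and Ncapg2. Over all genes voom called 4.61% higher and 4.08% lower. The kinetochore gene Ska3 and Troap had -0.29 and -0.32 with limma (adjusted p = 0.0659 and 0.0726).

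The APC/C marks cyclins for destruction. Of its 17 genes 12 had a positive difference and 5 a negative one, beside 7949 and 6869 of the 14818 genes tested. The median was 0.05, beside 0.02 over all genes, and none of the 17 passed with limma or voom. At an unadjusted p under 0.05, 3 were higher and 1 lower, beside 14.4% and 11.7% of all genes. Anapc2 and Cdc16, subunits of the complex, had 0.19 and 0.16, while Fbxo5, which encodes its inhibitor Emi1, had -0.27 (adjusted p = 0.113, 0.125 and 0.142). Cohesin and its loaders, 12 genes, had a median of -0.01 and none with an unadjusted p under 0.05, and the 3 with the smallest p were Pds5a at -0.16, the loader gene Mau2 at 0.16 and Wapl, which encodes the factor that releases cohesin, at -0.08 (adjusted p = 0.252, 0.399 and 0.525).

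The regulators upstream of the program were listed apart. Among 16 genes of DREAM, MuvB and B-Myb partners, none passed with limma or voom, and the median was -0.04. Of these, 3 were lower and 1 higher at an unadjusted p under 0.05, beside 11.7% and 14.4% of all genes. E2f4, the E2F factor of DREAM, had -0.25 (adjusted p = 0.0939), the MuvB subunit genes Lin54 and Rbbp4 had -0.24 and -0.12 (0.142 and 0.167), and Rbl2, which encodes the DREAM pocket protein p130, had 0.35 (0.175). Of 16 genes for the brakes and phosphatases of mitotic entry, none passed with limma. In this list 4 were lower and none higher at an unadjusted p under 0.05, beside 11.7% and 14.4% of all genes. Wee1, the kinase that inhibits Cdk1, had 41.7, 42.8 and 41.5 TPM in wild type and 37.1, 33.3 and 30.6 TPM in R206H, a difference of -0.31 (adjusted p = 0.0775) that passed with voom (0.0451). Cdc25a, the opposing phosphatase, had -0.31 too, and Ppp2r2d, a subunit of the phosphatase that counters Cdk1, had -0.19 (adjusted p = 0.143 and 0.165).

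The earlier phases of the cycle were compared in the same way. Of 44 replication and S-phase genes none passed with limma. Here 25 were lower and none higher at an unadjusted p under 0.05, beside 11.7% and 14.4% of all genes. The difference was negative for 41, beside 46.4% of all genes, and the median was -0.19, beside -0.14 for the 50 members. Voom called 7 of the 44 lower, beside 4.08% of all genes. Pcna, the sliding clamp of DNA polymerases, had 274.9, 287.1 and 291.3 TPM in wild type and 235.9, 243 and 235.7 TPM in R206H, a difference of -0.25 (SE 0.048, limma adjusted p = 0.0501). Ccne2, a cyclin of the G1 to S transition, had -0.59 (adjusted p = 0.0638), and the helicase subunit gene Mcm3 had -0.22 (0.0728). Whether the replication list differed from the members was not tested.

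The list of G1 cyclins and inhibitors of cyclin-dependent kinases held 16 genes, and it also took in Cdk2, Cdk4, Cdk6, Trp53, Mdm2 and Rb1. With limma 1 of the 16 rose and none fell, beside 1.26% and 0.790% of all genes, and the median was 0.13. Cdkn2b encodes the inhibitor p15, which is known as a target of transforming growth factor beta. It had 108.8, 91.5 and 95.5 TPM in wild type and 144.6, 146.1 and 179 TPM in R206H, a difference of 0.66 (SE 0.103, limma adjusted p = 0.0463), and the call was lost without wild-type library 2 or 3 or R206H library 2 or 3. Cdkn1a, the p21 gene, and Cdkn2a, the gene for p16 and p19Arf, had 0.25 and 0.74 (adjusted p = 0.0543 and 0.0618) and passed with voom (0.0406 and 0.0305). Cdkn1c, the p57 gene, ran the other way at -0.57 (limma adjusted p = 0.0744, voom 0.0365). At an unadjusted p under 0.05, 8 of the 16 were higher and 4 lower, beside 14.4% and 11.7% of all genes. The 8 were all cyclins or inhibitors, and the 4 were Ccnd1, Cdkn1c, Cdk6 and Trp53.

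**Figure D4:**
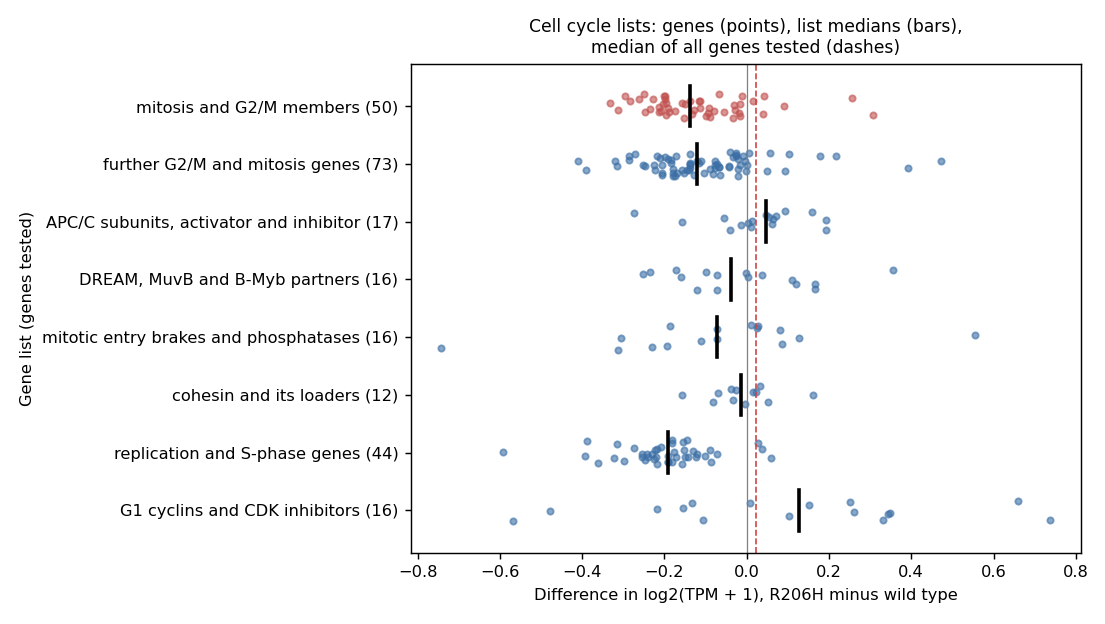
Difference in log2(TPM + 1), R206H minus wild type, for each gene (points) of the mitosis and G2/M members (red) and of 7 further cell cycle lists (blue), with list medians (bars) and the median of all genes tested (dashes, 0.02). The medians of the members (-0.14), the further mitosis genes (-0.12) and the replication genes (-0.19) lie left of it. The median of the list named for G1 cyclins and inhibitors (0.13), which also holds Cdk2, Cdk4, Cdk6, Trp53, Mdm2 and Rb1, lies right.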

How the data were processed

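RNA of 6 libraries was made without ribosomal RNA and sequenced as paired ends, per the labels. The authors deposited 1 table of TPM values per gene and library, with gene IDs and names. The submitters' processing notes name Trimmomatic, STAR, featureCounts, Subread, DESeq2 and the builds mm10 and GRCm38, with no role or order. Gene lengths, annotation release and strand counting: not given in the sources used here.

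Libraries were grouped by the genotype in the labels. The 14818 genes that reached 1 TPM in 3 or more libraries were fitted as log2(TPM + 1) by limma 3.58.1 (R 4.3.3, trended variance, no covariate, two-sided, Benjamini-Hochberg, threshold 0.05). Fold changes on this scale understate those of low genes. Reads were rebuilt from TPM and exon lengths of GENCODE M21 and were whole within 0.05 for 90.7% to 91.0% of low values, so voom on these reads was an alternative. Other alternatives were the pseudocount, the filter, the scaling, the variance model, a replicate block and leaving out each library. The code was tested on simulated data with changes larger than those of the members, so recovery at the members' sizes was not tested. Tables and figures used Python 3.11.15, pandas 2.3.3 and matplotlib 3.10.9.

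The members and lists were chosen with earlier results of these data known. In each role the member past the threshold or with the smallest p, and that with the highest mean, were named with values, and in each further list the 3 genes with the smallest p. Other members were named to complete the counts. The per-library values of Mybl2, Ccnb1, Nek2, Mki67 and Espl1 and the genes Ncapg2, Rbl2, Cdkn1c, Grhl2, Krt14, Cldn4 and Cdh1 were chosen after values were seen. So were the exon limit on printed promoters, 3 of the promoters and the ratios between members.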

Additional observations from a re-analysis of the deposited data

How the results depend on the processing

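The number of members called lower, 1 with limma, became 0 with a pseudocount of 0.1 or 5, no filter, median-of-ratios scaling, quantile normalization, no variance trend and the replicate block, 2 with the filter at TPM 5 and with voom, 6 with library weights and 4 at an adjusted p of 0.10, and was 0 to 2 without single libraries. Called higher were 1 with library weights and 1 at 0.10. Lower at an unadjusted p under 0.05 were 14 with no trend, 14 with the replicate block, and 5 to 20 without single libraries. Members lower without overlap were 28 with median-of-ratios scaling and with quantile normalization, and 31 to 34 without single libraries. Members higher without overlap were 1 with quantile normalization and 2 to 4 without single libraries. The labels describe no pairing by replicate number. Same-numbered libraries had correlations of 0.018, 0.0599 and -0.0283 between their deviations from the group means, and the others had -0.0518 to 0.0297. With 3 libraries per genotype these values cannot exclude a pairing. Further mitosis genes called lower were 7 with weights, 2 with voom and 3 at 0.10, called higher were 1 with the filter at TPM 5, weights, voom and at 0.10, and 0 to 1 without single libraries. Their median was -0.09 with a pseudocount of 5, -0.16 with quantile normalization and voom, and -0.12 to -0.09 without single libraries. In the APC/C list, 1 was called lower with weights, and the median was 0.02 with median-of-ratios scaling, quantile normalization, weights and voom and 0.02 to 0.06 without single libraries. In the DREAM list, 1 was called lower with weights and at 0.10 and 0 to 1 without single libraries, with a median of -0.08 with quantile normalization and -0.07 to 0.01 without single libraries. Entry brakes called lower were 1 with weights, voom and at 0.10, and 0 to 2 without single libraries. The cohesin median was -0.04 with median-of-ratios scaling, -0.05 with quantile normalization, -0.06 with voom and -0.04 to 0.03 without single libraries. Replication genes called lower were 2 with the filter at TPM 5, 15 with weights, 7 with voom, 14 at 0.10 and 0 to 2 without single libraries. In the G1 list, called lower were 1 with weights, 2 with voom, 1 at 0.10 and 0 to 1 without single libraries, and called higher were 0 with no filter, no trend and the replicate block, 3 with the filter at TPM 5 and voom, 5 with weights and at 0.10, and 0 to 2 without single libraries. Its median was 0.09 with quantile normalization. Of single members, 7 changed sign, all near 0: Bub1b to 0.013 and 0.007 (without wild-type library 1 and R206H library 2), Ttk to 0.021 (weights) and 0.011 (without R206H library 3), Ndc80 to -0.010 (median of ratios), -0.015 (quantile), -0.014 (voom), -0.013 and -0.018 (without wild-type library 3 and R206H library 2), Kif11 to 0.008 (without wild-type library 2, and without R206H library 1), Kif18b to 0.013, 0.016 and 0.023 (without wild-type library 1, R206H library 1 and R206H library 2), Mki67 to 0.001 (without R206H library 1) and Cdc20 to 0.041 (without wild-type library 2). Without single libraries these 7 otherwise reached -0.054 (Bub1b), -0.092 (Ttk), 0.042 (Ndc80), -0.067 (Kif11), -0.071 (Kif18b), -0.035 (Mki67) and -0.077 (Cdc20). The cause of these changes was not tested. The number of libraries, 3 per genotype, limits the precision, and each member had at least 191 reads in each library.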

Other observations

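Ratios of TPM between members differed between the genotypes in these libraries for some pairs. The pairs were chosen after their values were seen, so they are descriptions with no test. The ratio of Pttg1 (securin) to Espl1 (separase, its target) was 0.678, 0.615 and 0.691 in wild type (libraries 1 to 3) against 0.917, 1.00 and 0.934 in R206H (libraries 1 to 3). For Ccnb2 over Ccnb1, the 2 B-type cyclins, it was 1.19, 1.09 and 1.05 in wild type and 1.23, 1.30 and 1.40 in R206H. Cdc25c over Cdc25b gave 0.547, 0.529 and 0.505 in wild type and 0.597, 0.585 and 0.603 in R206H. The marker gene Mki67 over Top2a stood at 0.85, 0.846 and 0.844 in wild type and 0.898, 0.923 and 0.966 in R206H. For all 4 pairs, picked with these values known, every R206H value was above every wild-type value, and other pairs were not counted.

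Pseudogenes of the B-type cyclins were low. Ccnb1-ps was at 1.03 to 2.61 TPM and Ccnb2-ps at 0.366 to 1.48 TPM over the 6 libraries.

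Other measures moved with the genotype beside the members. The share of TPM from mitochondrial genes was 4.16% to 4.57% in wild type and 3.43% to 3.85% in R206H, and its part in the members' values was not tested.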
